A study of Mus musculus with 4 samples.

Results

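Xcr1, the gene of a chemokine receptor, and Xcl1, the gene of its ligand, were followed across 4 microarrays of mouse type 1 conventional dendritic cells (cDC1), the dendritic cell subset that presents antigens of dead cells to CD8 T cells. The members were the probe sets annotated to these symbols alone. They were 2 of the 22180 genes named by such probe sets, with 1 probe set each, and no probe set shared with another gene named either of them. The groups were XCR1-deficient (KO) cells with lipopolysaccharide (LPS, 100 ng/ml) and recombinant mouse XCL1 (100 ng/ml), KO cells with LPS alone (100 ng/ml), WT cells with LPS and XCL1, and WT cells with LPS alone. The mice were C57BL/6, aged 10 weeks and given as female, and every group received LPS, so no array shows either gene without it. Each group had 1 array, so no value below has an error, a replicate check or a p-value, and the number of arrays limits the precision. The sources used here give neither the deficient allele, nor the tissue, nor the length of treatment.

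XCR1 couples to inhibitory G proteins and draws cDC1 towards cells that release XCL1. Activated natural killer (NK) cells and CD8 T cells are the best known sources of XCL1, which is the sole member of the C class of chemokines in mice. The recombinant XCL1 added to the medium is a protein and is not read by an array. The Xcl1 signal is that of the cells' own transcript.

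All values are log2 signals that the authors summarised per probe set with RMA, and differences between them. The calls cover 11088 named genes with a signal of 5.43 or more, the median of all values, on 1 array or several. A call of higher or lower means a ratio of 1.5-fold or more between arrays (0.58 as a log2 difference). Markers of cDC1 were present on every array. Of 22 named genes on a list of 24, 21 passed the limit, and their mean log2 signal was 8.92 and 8.87 in KO cells (LPS and XCL1, then LPS), and 8.96 and 8.94 in the WT arrays in the same order. Clec9a shares its probe set with another gene and was not read. Markers of other cells were present as well, and moved with genotype (see the lists of markers further on). The sex label was not borne out. Xist, the RNA of the inactive X chromosome in female cells, was at 4.57 and 4.64 in KO cells against 7.91 and 7.95 in WT cells. The Y-linked genes Eif2s3y, Kdm5d and Uty had signals from 7.01 to 8.89 on all 4 arrays. Whatever sets the Xist signals apart cannot be told apart from genotype. The names of the arrays carry 2 prefixes, 0 of them shared between the genotypes, and whatever they mark cannot be told apart from genotype either. With 1 array a group, no result can be given without these arrays.

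The stretches just before the 2 transcription starts are shown because the regulators of cDC1 described below act on such DNA. They are the 250 bases before the start of each gene in RefSeq's annotation (GRCm38.p6), which held both genes. That of Xcr1 lies at chr9:123862030-123862279 and that of Xcl1 at chr1:164935523-164935772, both on the minus strand. Capitals mark the motifs found.
Xcr1: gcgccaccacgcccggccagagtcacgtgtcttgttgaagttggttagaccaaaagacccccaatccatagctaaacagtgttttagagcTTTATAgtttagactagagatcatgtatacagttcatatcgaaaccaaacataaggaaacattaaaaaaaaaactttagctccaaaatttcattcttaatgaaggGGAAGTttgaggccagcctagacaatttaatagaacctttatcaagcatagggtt
Xcl1: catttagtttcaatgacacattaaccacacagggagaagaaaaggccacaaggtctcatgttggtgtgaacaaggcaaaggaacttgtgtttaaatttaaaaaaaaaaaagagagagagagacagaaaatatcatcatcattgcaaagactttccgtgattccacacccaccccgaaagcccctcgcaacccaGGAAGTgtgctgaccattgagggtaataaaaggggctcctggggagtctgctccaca

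Each stretch held 1 GGAAGT, the core read by ETS factors such as PU.1, at 55 to 50 bases before the start in Xcr1 and 57 to 52 bases before it in Xcl1. Of 32851 promoter windows of this length, 19.7% held this motif on either strand. That of Xcr1 also held TATAAA on the opposite strand, at 160 to 155 bases before the start, a motif in 12.4% of windows. Neither held TGANTCA, the motif of AP-1 factors such as BATF3, on either strand (6.75% of windows did). The 3 motifs share no base in either stretch. GC content was 38.8% for Xcr1 and 44% for Xcl1, and 9.7% and 21.1% of windows had less. A motif match is a description of letters, and the arrays do not measure binding.

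Xcr1 was lower in the KO arrays than in the WT arrays, and in WT cells it was higher with XCL1. Its log2 signal was 5.11 in KO cells with LPS and XCL1, 5.54 in KO cells with LPS, 7.19 in WT cells with LPS and XCL1, and 6.42 in WT cells with LPS. Both KO arrays lay below both WT arrays. The WT array with XCL1 was the highest, and the KO array with XCL1 the lowest and the only one under the limit of 5.43. On a linear scale these signals were 34.5, 46.6, 146 and 85.4. As a second scale for background, 1108 probe sets of olfactory receptors, genes not known for a role in dendritic cells, had 95th percentiles of 5.65 and 5.77 in KO cells (LPS and XCL1, then LPS), and 5.63 and 5.64 in the WT arrays in the same order. The Xcr1 signals of both KO arrays were below these marks, and those of both WT arrays above them. Probes differ in affinity, so this is a rough scale. With signals under the limit raised to it in every gene, the range of Xcr1 over the 4 arrays was at least 1.76, the 4th largest of 11088 genes.

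**Figure D1:**
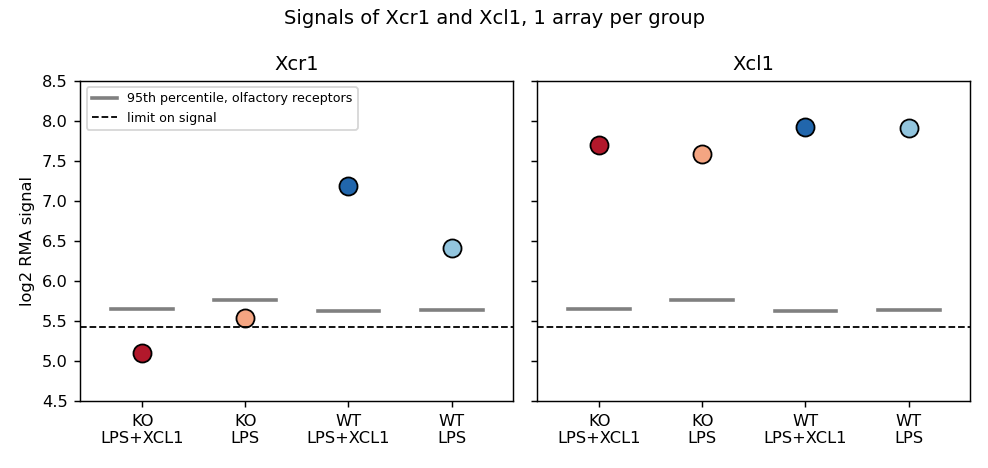
Log2 signals of Xcr1 and Xcl1 on the 4 arrays (1 point per array), with the limit on signal (dashed) and each array's 95th percentile of olfactory receptor probe sets (grey bars). Xcr1 is lowest in KO cells with LPS and XCL1 (5.11) and highest in WT cells with LPS and XCL1 (7.19), while Xcl1 stays between 7.59 and 7.93.

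The genotype pairs check the label of the KO cells. With LPS alone Xcr1 was at 5.54 in KO cells against 6.42 in WT cells, a log2 difference of -0.87. Measured against the olfactory receptor mark of 5.77, since the KO signal lay under it, this was at least 1.56-fold lower. In this pair 1.01% of the 11088 genes were called lower. With LPS and XCL1 it was at 5.11 in KO cells against 7.19 in WT cells, a difference of -2.08. Measured against the limit, since the KO signal lay under it, this was at least 3.38-fold lower. Against the olfactory receptor mark of 5.65 it was at least 2.90-fold lower. Here 1.79% of genes were called lower. Xcr1 was among 33 genes (0.298%) called lower in both pairs. Among 3303 genes with a mean signal within 0.5 of its own, 2.09% were called in either direction with LPS and 3.78% with LPS and XCL1. The direction is that of the genotype labels. The place of the deletion is not stated, so the probes may lie outside it, and the label would then go unchecked. In RNA from a cell mixture, fewer cells of a type and less RNA per cell cannot be told apart.

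The treatment pairs ask whether its own ligand went with a different Xcr1 signal. In WT cells Xcr1 was at 7.19 with LPS and XCL1 against 6.42 with LPS, a log2 difference of 0.77, or 1.71-fold higher. This was the 6th highest of 11088 genes, of which 0.225% were called higher, and among the 3303 genes of like signal 0.727% were called in either direction. In KO cells Xcr1 was at 5.11 with LPS and XCL1 against 5.54 with LPS, a difference of -0.43 that stayed within 1.5-fold, in a pair where 0.541% of genes were called lower. With the signal under the limit raised to it, that difference was -0.11, and no exact value can be given for it. The XCL1 difference in KO cells minus that in WT cells was -1.20 as measured and -0.88 with signals raised to the limit, in a comparison where 1.38% of genes were called lower. In all, 25 genes were called higher with XCL1 in WT cells, and 17 of these (0.153% of all genes) lay below 0 in KO cells. Opposite directions were thus common among the genes called higher in WT cells, and not particular to Xcr1. A gauge of measurement spread in these arrays is that between probe sets of 1 gene, which are read on the same arrays. Taken over the 443 genes that had more than 1 such probe set, it was 0.177 in the WT treatment pair, 0.213 in the KO treatment pair, 0.215 and 0.230 in the genotype pairs without and with XCL1, and 0.260 for the difference between the XCL1 differences (SD per probe set). The spread between probe sets holds no variation between mice or cultures. Over the 3303 genes of like signal the SD of the differences was larger, at 0.204, 0.216, 0.251, 0.280 and 0.279 in the same order.

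**Figure D2:**
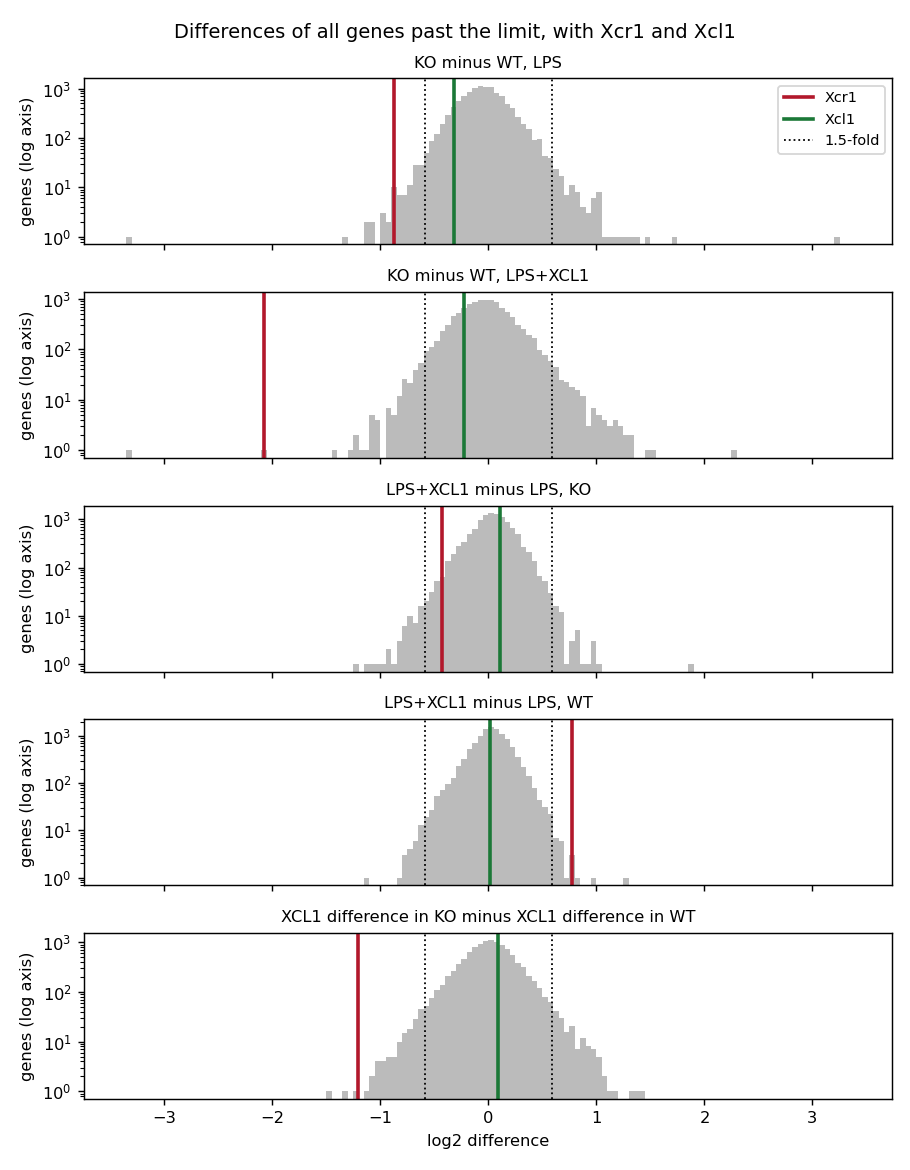
Histograms of log2 differences over 11088 genes in the 5 comparisons (counts on a log axis), with lines at Xcr1, Xcl1 and 1.5-fold. Xcr1 lies outside 1.5-fold in all but the KO treatment pair, where it is at -0.43, and Xcl1 lies inside it in all 5.

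Xcl1 differed little between the arrays. Its log2 signal was 7.70 in KO cells with LPS and XCL1, 7.59 in KO cells with LPS, 7.93 in WT cells with LPS and XCL1, and 7.91 in WT cells with LPS. The KO arrays were both lower than the WT arrays, and the whole range was 0.34, which ranked 4306th among all genes. Of the 1108 olfactory receptor probe sets, at most 1 on any array reached the Xcl1 signal there. The genotype difference was -0.32 with LPS and -0.23 with LPS and XCL1, where 15.5% and 34.9% of genes differed at least as much. XCL1 treatment went with a difference of 0.11 in KO cells and 0.02 in WT cells, sizes that 53% and 89.7% of genes reached or exceeded. The XCL1 difference in KO cells minus that in WT cells was 0.09. None of the 5 differences of Xcl1 reached 1.5-fold, in comparisons where 2.02%, 3.49%, 1.02%, 0.559% and 2.92% of genes did so in either direction.

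Markers of the cells best known for making XCL1 are given beside it. Of 24 NK and T cell markers, 22 were named and 20 passed the limit, 2 of them through the WT arrays alone. Their median difference was -0.25 in KO minus WT with LPS and -0.26 with LPS and XCL1, against -0.05 and -0.04 over all genes, with 16 and 15 of 20 members below 0. The T cell receptor subunits Cd3e (-0.68 and -1.18) and Cd3g (-1.10 and -0.94) were called lower in both pairs, where 1.01% and 1.79% of all genes were. Other members lay above 0 within 1.5-fold, among them Klrk1, an activating receptor of NK and CD8 T cells (0.35 in each pair), the transcription factor gene Tbx21 (0.36 and 0.39) and Gzmb, which encodes granzyme B (0.24 and 0.25). Ncr1, which encodes the NK cell receptor NKp46, had signals of 6.72 and 6.95 in KO cells (LPS and XCL1, then LPS), and 6.90 and 7.10 in the WT arrays in the same order. With XCL1 the list's median was 0.03 in KO cells and 0.04 in WT cells. No member was past 1.5-fold, near the shares over all genes of 1.02% in KO and 0.559% in WT cells. Klrc1, an NK receptor gene, had a lower XCL1 difference in KO than in WT cells (-0.67), where 1.38% of all genes were called lower. The summed linear signal of the 20 genes, the 2 let in by the WT arrays alone included, was 2931 and 2950 in KO cells (LPS and XCL1, then LPS). In WT cells it was 3213 and 3156. The part of these cells in the Xcl1 signal was not tested.

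Of 8 genes for products that NK and CD8 T cells secrete together with XCL1, 7 were named and 6 passed the limit. Their median genotype difference was -0.03 with LPS and 0.09 with LPS and XCL1. The XCL1 difference in KO minus that in WT cells was above 0 in all 6, at 0.01 to 0.20, with a median of 0.07 against 0.01 over all genes. Ifng, the interferon-gamma gene, was the 1 member called, at 9.20 and 9.21 in KO cells (LPS and XCL1, then LPS), against 8.05 and 8.26 in WT cells, a difference of 1.15 and 0.95. In both genotype pairs 0.406% of all genes were called higher. The chemokine genes Ccl3, Ccl4 and Ccl5 had genotype differences of -0.05, -0.02 and 0.10 in the LPS pair and 0.14, 0.04 and 0.20 in the pair that also had XCL1. The list of chemokine ligand genes other than Xcl1 held 33, these 3 included, and 23 passed the limit. With LPS 1 was called, Ccl17 (-0.66), a ligand of CCR4, where 1.01% of all genes were called lower. With LPS and XCL1 Ccl17 was lower in KO cells (-0.63). Ccl2 (0.62), Ccl28 (0.64), Cxcl2 (0.87) and Cxcl11 (0.89) were higher there, where 1.7% of all genes were called higher and 1.79% lower. No ligand gene was called with XCL1 in either genotype, near the shares over all genes of 1.02% in KO and 0.559% in WT cells. The XCL1 difference in KO cells minus that in WT cells was 0.85 for Ccl28 and -0.59 for Ccl25. In this comparison 1.54% of all genes were called higher and 1.38% lower.

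The genes beside Xcr1 on chromosome 9 belong in part to a cluster of chemokine receptor genes, and their values are given because they lie closest to the targeted gene. Of the 5 nearest named genes on each side, 6 passed the limit. None of these was called in either genotype pair, where only 2.02% (LPS) and 3.49% (LPS and XCL1) of all genes were called in either direction. Their differences ran from -0.58 to 0.40 with LPS and from -0.49 to 0.34 with LPS and XCL1. Ccr9, the receptor for the gut and thymus chemokine CCL25, came closest, at 6.77 and 6.55 in KO cells (LPS and XCL1, then LPS), against 7.26 and 7.13 in WT cells. With LPS its difference of -0.5847 was only just inside the threshold of 0.5850. Ccr9 is also among the plasmacytoid dendritic cell markers given further on. Cxcr6, the next gene on that side, had differences of 0.22 (LPS) and 0.18 (LPS and XCL1). Its signal was also higher with XCL1 in both genotypes, by 0.51 in KO and 0.55 in WT cells, within 1.5-fold in each. Both Cxcr6 signals with LPS alone, 5.41 in KO and 5.19 in WT cells, were under the limit. With these raised to it, the XCL1 differences were 0.49 in KO and 0.31 in WT cells, and the genotype difference with LPS was 0. Slc6a20a, a transporter gene, was past 1.5-fold in the XCL1 difference of KO minus WT cells (0.64), the 1 neighbour above the limit to be so, and Ccr1, under the limit, was at -0.61. In this comparison 1.54% of all genes were called higher. Ccr1, Ccr1l1, Ccr3 and Nlrp4g on the other side stayed under the limit on every array. Around Xcl1 on chromosome 1, 8 of 10 neighbours passed the limit. Atp1b1, a subunit of the sodium pump, was called lower in KO cells with LPS (-0.88) and stayed within 1.5-fold with LPS and XCL1 (-0.37), and Gpr161 was called higher with LPS and XCL1 (0.59), with both its signals there under the limit. Gpr161 was also called lower with XCL1 in WT cells (-0.69), from signals under the limit as well. Of all genes, 1.01% were called lower in the LPS genotype pair, 1.7% higher in the pair with XCL1, and 0.334% lower with XCL1 in WT cells.

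**Figure D3:**
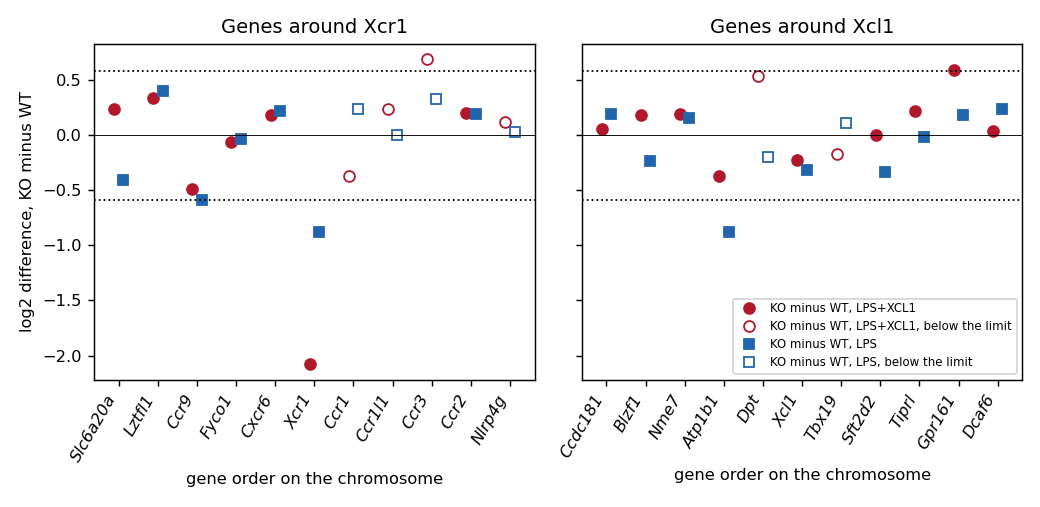
KO minus WT log2 differences of Xcr1, Xcl1 and the 5 nearest named genes on each side, in chromosome order and not to distance (filled, past the limit on signal; open, under it; dotted lines, 1.5-fold). Xcr1 at -2.08 and -0.87 stands below its own 10 neighbours, which lie between -0.58 and 0.69, while Atp1b1 next to Xcl1 reaches -0.88.

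Genes were chosen for likeness to Xcr1 on these same 4 arrays, which favours genes lower in the KO arrays, and the nearest were lower there too. Likeness was measured as the Euclidean distance between log2 signals after subtracting each gene's mean, over 4 arrays. Only a very small distance needs both the same order and the same size. At the distances of 0.62 to 0.78 found for Xcr1 the order of arrays within a genotype can differ. The distance grows with the size of a gene's own differences, and is thus larger for Xcr1 than for Xcl1 by construction. The 8 nearest genes were Cd27, a TNF receptor family member of T and B cells (distance 0.62), Vamp7, a SNARE of late endosomes (0.63), Carf, a calcium-responsive transcription factor (0.73), Cd3e (0.73), the Src family kinase gene Yes1 (0.73), Ighg3, the constant region of IgG3 (0.74), Fcer2a, the low-affinity IgE receptor of B cells (0.77), and Man1c1, a Golgi mannosidase (0.78). All 8, chosen for likeness to Xcr1, had both KO arrays below both WT arrays. As measured, Cd27, Vamp7, Carf, Cd3e and Man1c1 also had the sign of Xcr1 in all 5 comparisons, Vamp7 at only -0.007 with XCL1 in KO cells. Carf passed the limit through the WT array with LPS and XCL1 alone (5.68). With signals raised to the limit, Carf was at 0 in KO minus WT with LPS and with XCL1 in KO cells. Man1c1 was under the limit on the KO array with LPS and XCL1 (5.30), and kept its signs with signals raised. With XCL1 in WT cells the nearest, Cd27, was at 6.58 against 6.28 with LPS, a difference of 0.30 where Xcr1 had 0.77. In KO cells Cd27 was at 5.16 with LPS and XCL1 against 5.76 with LPS, a difference of -0.60 (-0.33 with the signal under the limit raised to it). Of the other 7, none reached 1.5-fold in a treatment pair. Cd3e and Fcer2a are on the lists of T and B cell markers that were lower in the KO arrays. For Xcl1, whose differences were small, 436 genes lay within a distance of 0.1. The 6 nearest were Zfp1 (0.012), Snupn, which imports spliceosomal particles into the nucleus (0.016), Zfp398 (0.017), Srf, the serum response factor (0.018), the centrin gene Cetn2 (0.023) and Rida (0.024). With cyclic loess or quantile normalization 1 of these 6 remained among the 6 nearest, so their names carry little weight.

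**Figure D4:**
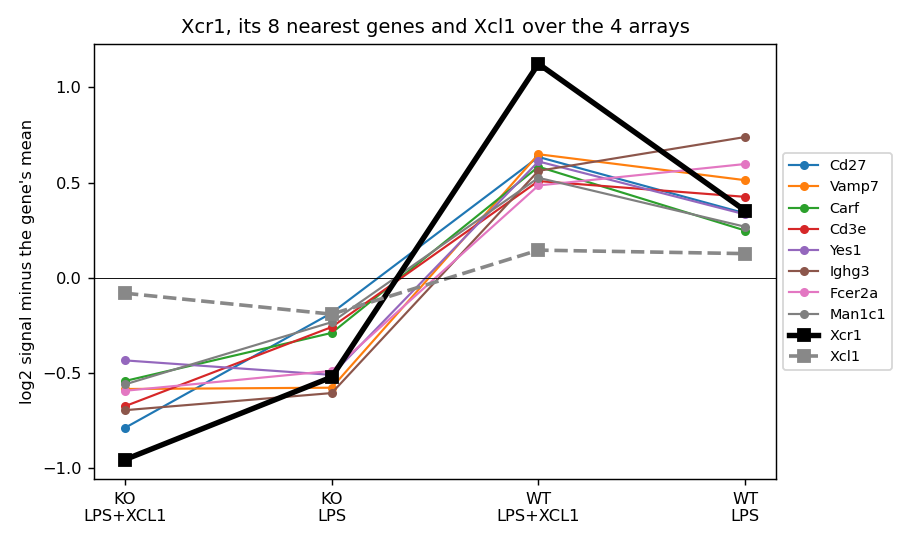
Log2 signal minus each gene's mean on the 4 arrays for Xcr1 (black), its 8 nearest genes (coloured) and Xcl1 (dashed). All 8, chosen for likeness to Xcr1, lie lower in KO than in WT cells, but none has as large a difference with XCL1 in WT cells (0.77 for Xcr1).

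Of 21 cDC1 identity genes past the limit, none was called with LPS, where the median was -0.03, and 2 were lower in KO cells with LPS and XCL1, where it was 0.01, against medians of -0.05 and -0.04 and shares called lower of 1.01% and 1.79% over all genes. These 2 were the scavenger receptor gene Cd36 (-0.68) and Gcsam (-0.67). They came close to the threshold with LPS too, at -0.57 and -0.55. Cadm1, an adhesion molecule of cDC1, was at 7.21 and 7.25 in KO cells (LPS and XCL1, then LPS), against 7.50 and 7.38 in WT cells, a difference of -0.29 and -0.13. With XCL1 the median was 0.06 in KO and 0.01 in WT cells. No identity gene was called in either, near the shares over all genes of 1.02% in KO and 0.559% in WT cells. Snx22, a sorting nexin gene, was the 1 call in the XCL1 difference of KO minus WT cells (0.59), where 1.54% of all genes were called higher. The transcription factors on which cDC1 depend stayed within 1.5-fold. In the LPS pair Irf8 was at 0.01, Batf3 at 0.04 and Spi1, which encodes PU.1, at -0.12. In the pair with XCL1 they were at 0.15, 0.17 and -0.07. The 8 factors past the limit ran from -0.29 (Cbfa2t3) to 0.22 (Bcl6) with LPS. With LPS and XCL1 they ran from -0.26 to 0.32, at the same genes. None of these 8 was called in any of the 5 comparisons. In the order given for Xcl1 above, 2.02%, 3.49%, 1.02%, 0.559% and 2.92% of all genes were called. With 8 members, an absence of calls is near those shares.

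Of 25 symbols for G protein subunits, arrestins, receptor kinases and RGS proteins, which act downstream of receptors such as XCR1, 21 were named and 20 passed the limit. In the genotype pairs 0 were called with LPS and 1 with LPS and XCL1, against 2.02% and 3.49% of all genes. This was Gnai1, an inhibitory G protein subunit gene that passed the limit through the WT arrays alone. It was at 5.14 in KO cells against 5.79 in WT cells, a difference of -0.66 that became -0.36, within 1.5-fold, with the KO signal raised to the limit. In the LPS pair the other inhibitory subunit genes were at 0.19 (Gnai2) and 0.16 (Gnai3), and in the pair with XCL1 Gnai2 was at 0.01. The arrestin gene Arrb2 was at -0.22 in the pair with XCL1. With XCL1 no gene of the list was called in either genotype, near the shares over all genes of 1.02% in KO and 0.559% in WT cells. Of 22 named receptors for other chemokines, 14 passed the limit, and Ccr8 was the 1 called. Its signal was 5.86 and 5.14 in KO cells (LPS and XCL1, then LPS), against 4.85 and 5.56 in WT cells. Its XCL1 difference was 0.71 in KO cells, where 0.478% of all genes were called higher, and -0.71 in WT cells, where 0.334% were called lower. With signals under the limit raised to it these were 0.43 and -0.13, within 1.5-fold, and its difference in KO minus WT with LPS and XCL1, 1.01 as measured, was 0.43. Integrin alpha 9, reported in mice as another partner of XCL1, was under the limit on every array (Itga9, 4.83 to 5.29), while its partner chain Itgb1 was at 10.38 to 10.48.

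Markers of other cell types moved with genotype beside Xcr1. All 8 B cell markers past the limit were below 0 in both genotype pairs, with medians of -0.49 with LPS and -0.58 with LPS and XCL1. Called lower were Fcer2a (-1.09 and -1.08), Cd79b (-0.77 and -1.01) and Cr2 (-0.98 and -0.66) in both pairs, and Cd79a (-0.69) with LPS and XCL1, where 1.01% and 1.79% of all genes were called lower. The mean log2 signal of the 8 was 7.56 and 7.57 in KO cells (LPS and XCL1, then LPS), against 8.18 and 8.14 in WT cells. Red cell markers went the other way. Of 5 named, 4 passed the limit, 2 of them through the KO arrays alone. Slc4a1, the red cell anion exchanger, was above the limit on every array, at 7.67 and 7.62 in KO cells (LPS and XCL1, then LPS), against 6.32 and 6.12 in WT cells. Klf1, a transcription factor gene of red cell precursors, stayed under the limit, with differences of 0.37 with LPS and 0.13 with LPS and XCL1. The 4 genes' summed linear signal was 429 and 434 in KO cells (LPS and XCL1, then LPS), against 191 and 185 in WT cells. This sum includes the 2 genes let in by the KO arrays alone and leaves out Klf1, so the filter itself favours KO cells in it. With XCL1 in WT cells, where Xcr1 was higher by 0.77, the medians of the B cell, NK and T cell and red cell lists were 0.04, 0.04 and 0.03, against 0.03 over all genes. None of their members was called, in a pair where 0.559% of all genes were. With lists this short, an absence of calls is near that share. The part of these cells in the genotype differences of Xcr1, and in its XCL1 difference in WT cells, was not tested.

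**Figure D5:**
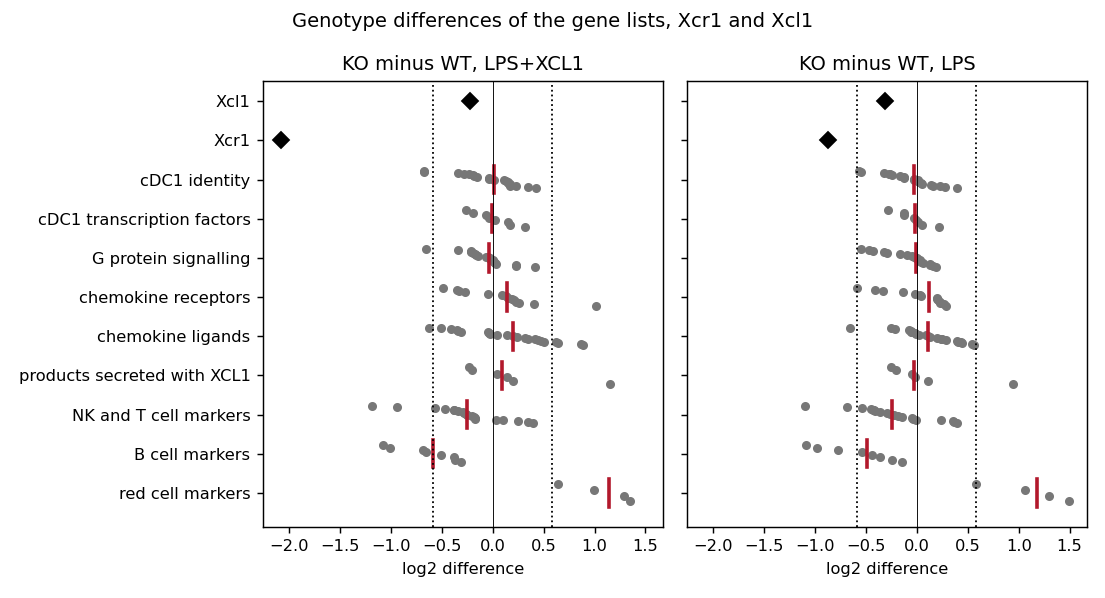
KO minus WT log2 differences of Xcr1, Xcl1 and the members of 9 lists past the limit (points), with list medians (red bars) and 1.5-fold (dotted), for LPS and XCL1 (left) and LPS (right). Xcr1 lies below every cDC1 identity gene in both pairs, B cell markers lie below 0 and red cell markers above it. Of the 4 red cell markers shown, 2 passed the limit through the KO arrays alone.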

How the data were processed

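Per the labels' protocols, TRIzol was used for RNA, which was read on MoGene arrays. The authors deposited RMA log2 signals, 1 per probe set and array, per the labels. RMA equalises the arrays, so a shift of most genes cannot be seen, and the software versions and build were not given in the sources used here. Of 41345 probe sets, 23521 had 1 gene symbol, 1814 several and 16010 none. Leaving out several symbols, 4811 probe sets (olfactory receptors, small RNAs, predicted genes, receptor segments), and all but the brightest probe set of a gene gave 17535 genes, 11088 with a signal of at least 5.43 on an array. Differences between single arrays were taken with no test. Arrays correlated at 0.983 to 0.993 across genes. Counting and the likeness search were tested on simulated data.

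Genes were named by rule: both members, the 8 and 6 genes nearest to them in pattern, 5 neighbours on each side, and members of 15 lists past 1.5-fold, or otherwise defining members. Atp1b1 and Gpr161 are neighbours. Members and lists were chosen with earlier results of these data known. Xist was named as a check of the labels, and Klrk1, Tbx21, Klf1, Bcl6 and Cbfa2t3 after their values were seen. Alternatives were a 2-fold threshold, no limit, a limit at the 75th percentile (6.91, called stricter), normalization by cyclic loess (limma 3.58.1, span 0.7, 3 iterations), quantile normalization, centring on the gene median, signals raised to the limit, the mean of probe sets and, chosen after seeing the data, signals raised to each array's 95th percentile of olfactory receptor probe sets. Longer motifs (IRF repeat, ETS-IRF, AP-1-IRF and NF-kB) had also been searched in both promoters without a match, and are not reported further.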

Additional observations from a re-analysis of the deposited data

Results flagged for a closer look

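Xcr1 differed between the genotypes in its XCL1 difference, by -1.20 in KO minus WT cells. It was lower with XCL1 in KO cells (-0.43, within 1.5-fold, and -0.11 with the signal under the limit raised to it) and higher in WT cells (0.77). Each direction rests on 1 array per group, and the difference between the genotypes was not tested.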

How the results depend on the processing

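Depending on the comparison, 3 to 5 of the 9 alternatives changed the value of a Xcr1 difference, and none changed its sign. A 2-fold threshold, the absence of a limit, the stricter limit and the mean of probe sets cannot act on these values. With centring on the gene median, which moves the median of all genes by 0.103 and 0.101 in the genotype pairs, Xcr1 was at -0.77 with LPS and -1.98 with LPS and XCL1. A 2-fold threshold ended 2 calls of Xcr1, KO minus WT with LPS (-0.87) and XCL1 in WT cells (0.77). With signals raised to the limit, the XCL1 difference of Xcr1 in KO cells was -0.11, and -0.12 with signals raised to the olfactory receptor mark. No alternative called Xcl1, and its XCL1 difference in WT cells, 0.02, ran down to -0.05. Counts of called genes, in the order KO minus WT with LPS, KO minus WT with LPS and XCL1, XCL1 in KO, XCL1 in WT and the difference of these, were 224, 387, 113, 62 and 324. They were 24, 43, 6, 2 and 22 at 2-fold and 105, 198, 27, 11 and 75 with the stricter limit. Without a limit they were 352, 578, 223, 186 and 756, and with signals raised to the limit the last 3 were 67, 27 and 209. With signals raised to the olfactory receptor mark they were 148, 284, 52, 21 and 158. Centring gave 208 higher and 52 lower genes against 112 and 112 for KO minus WT with LPS, and 336 and 93 against 188 and 199 with LPS and XCL1. It gave 25 and 88 against 53 and 60 for XCL1 in KO, and 13 and 65 against 25 and 37 in WT, where cyclic loess gave 27 and 26. Of the 8 genes nearest to Xcr1, 5 remained among the 8 nearest with the stricter limit. Of the 6 nearest to Xcl1, 1 did so with the stricter limit, 1 with cyclic loess and 1 with quantile normalization. The stricter limit itself leaves out Cd27, Carf and Man1c1, and all of the 6 but Srf. Its counts thus follow from the limit and do not test the likeness. No analysis paired by replicate was possible because each group has 1 array and thus no replicate number to use as a block. For the same reason no array could be left out. A model of genotype and treatment without their interaction was possible but was not fitted, since its residual would be that interaction. Low signal over background limits the KO values of Xcr1.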

Other observations

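Markers of further myeloid and plasmacytoid cells showed mixed differences. Over all genes the medians of KO minus WT were -0.05 with LPS and -0.04 with LPS and XCL1. In the same order, 1.01% and 1.79% of all genes were called lower, and 1.01% and 1.7% higher. The 9 plasmacytoid dendritic cell markers past the limit had medians of -0.35 in KO minus WT with LPS and -0.47 with LPS and XCL1. Spib, an ETS factor, was lower with LPS (-0.66), and Ly6d (-1.22) and Cox6a2 (-0.71) were lower with LPS and XCL1, where Bst2 was higher (0.78). With XCL1 in KO cells Bst2 was higher (0.97) and Ly6d lower (-1.12), where 0.478% of all genes were called higher and 0.541% lower. The 5 markers of type 2 conventional dendritic cells had medians of -0.01 in both pairs, with Cd209a higher with LPS and XCL1 (0.62). The 10 macrophage and monocyte markers had medians of -0.05 and 0.09, with the Fc receptor gene Fcgr1 higher in both pairs (1.00 and 1.19). The 7 neutrophil markers had medians of 0.26 and 0.38, with Camp higher with LPS (0.65) and S100a8 (1.11), S100a9 (0.71) and Ltf (0.78) with LPS and XCL1.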
